A study of Mus musculus with 2 samples.

Results

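The genes described here encode the collagens, the laminins and 5 partner glycoproteins of the extracellular matrix in the small intestine of 1 mouse. The members were all protein-coding genes whose symbol names a collagen alpha chain or a laminin alpha, beta or gamma chain, together with the nidogens Nid1 and Nid2, the heparan sulfate proteoglycans Hspg2 (perlecan) and Agrn (agrin), and Fn1 (fibronectin). This rule, which used no measured value, gave 60 genes of the 43346 Ensembl genes in the tables: 44 collagens, 11 laminins and 5 others. Poly(A) RNA was sequenced from the small intestine of a C57BL/6J female aged 10 weeks, with no treatment and no altered allele given in the labels. There was 1 biological replicate, measured in 2 technical libraries. The first library is technical replicate 1. The second is technical replicate 2, made later and, per the labels, outside the publication that used the first. The sources used here do not say whether both came from 1 RNA extraction. Paired values below are the first and then the second library, and all tests compare these libraries, not conditions or mice.

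Basement membranes are thin sheets of matrix beneath epithelia and around muscle, nerve and vessels. Laminin heterotrimers of an alpha, a beta and a gamma chain and a network of collagen IV form 2 polymers in such a sheet, and nidogens and perlecan bind to both. In the gut the sheet lies between the absorptive epithelium and the lamina propria, whose fibroblasts deposit the fibrillar collagens I, III and V. Much of the basement membrane collagen of the intestine is known to come from mesenchymal cells, whereas the epithelium adds laminin chains of its own. Collagens share a triple helix, which needs glycine as the first residue of each Gly-X-Y triplet, and glycine and proline have codons rich in G and C.

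That repeat could be read directly in the coding sequences, credited here to GENCODE M21 transcripts on mm10. All 44 collagens had a stretch of 10 or more uninterrupted Gly-X-Y codon triplets, and none of the 16 other members had one. Col3a1 had the longest, with 344 triplets in a row, and the median share of glycine codons was 24.2% in the collagens against 8.37% in the other members. The 5 stretches below are shown because these chains form collagens I and III, the main fibers of the stroma, and the ubiquitous collagen IV network. Each gives the first 30 codons of the first run of 10 triplets, 5′ to 3′ on the coding strand, with glycine codons in capitals. That first run need not be the longest of its chain, so a stretch may lie outside the main triple helix.
Col1a1 (chromosome 11, codons 99 to 128): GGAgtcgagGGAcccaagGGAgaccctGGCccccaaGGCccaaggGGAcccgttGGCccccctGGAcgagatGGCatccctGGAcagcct
Col1a2 (chromosome 6, codons 33 to 62): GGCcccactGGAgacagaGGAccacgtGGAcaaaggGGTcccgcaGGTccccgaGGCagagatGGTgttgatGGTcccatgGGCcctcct
Col3a1 (chromosome 1, codons 104 to 133): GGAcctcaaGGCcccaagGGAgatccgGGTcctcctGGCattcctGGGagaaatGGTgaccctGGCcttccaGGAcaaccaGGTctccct
Col4a1 (chromosome 8, codons 43 to 72): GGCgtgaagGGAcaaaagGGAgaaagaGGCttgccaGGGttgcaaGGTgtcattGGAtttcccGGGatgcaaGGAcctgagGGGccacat
Col4a2 (chromosome 8, codons 58 to 87): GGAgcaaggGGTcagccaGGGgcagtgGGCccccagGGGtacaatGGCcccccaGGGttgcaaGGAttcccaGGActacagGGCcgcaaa
The longest unbroken run anywhere in the coding sequence was 338 triplets in Col1a1, 339 in Col1a2 and 344 in Col3a1. In the collagen IV chains it was 40 in Col4a1 and 66 in Col4a2. Within the printed stretches of 30 codons GC content was 70.0% in Col1a1, 65.6% in Col1a2, 62.2% in Col3a1, 56.7% in Col4a1 and 66.7% in Col4a2. Over the whole coding sequence it was 63.0%, 59.5%, 56.9%, 60.4% and 61.5% in the same order.

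Levels are given as TPM, a share of all transcripts corrected for length and scaled to a fixed sum. The tables held 28277864 and 24509856 rounded counts, and 3 counts, the limit that a count of 0 allows, are 0.106 and 0.122 CPM. Genes of the mitochondrial genome, with copies of them in nuclear DNA, took 72.3% and 21.6% of TPM, so TPM was also rescaled without them. That nuclear TPM is the deposited TPM multiplied by 3.61 in the first library and by 1.28 in the second. Intervals and floors cover counting error only, since reads that carry no molecular identifier cannot be taken as separate molecules. The two-sided exact binomial test used rounded counts with library sizes scaled by TMM, and p-values were adjusted by Benjamini-Hochberg over all 15194 genes with 20 or more counts. A gene was called higher in a library, or called for it in short, at an adjusted p under 0.05 and a difference of 2-fold or more.

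The matrix genes together held a small part of the RNA, and a larger part in the second library. Their summed level was 140.9 and 557.33 TPM. As a share of nuclear TPM this was 0.0509% and 0.0711%, with a mean of 0.0610% over both libraries. The members took 17226 and 46642 counts, or 0.0609% and 0.190% of each library. A level of 1 deposited TPM or more was reached in both libraries by 23 members, in the second alone by 17, and in the first alone by 0. This split depended on the scale. On nuclear TPM 32 members reached 1 in both libraries, and Col4a3, at 1.26 and 0.51, did so in the first library but not in the second. The share of all genes that pass this cut was not computed. The other 20 stayed under 1 TPM in both, at most 0.35 TPM in the first library and 0.91 TPM in the second, and Col10a1, the short-chain collagen of growth cartilage, had 0 counts in both. The cartilage fibril chains Col2a1 and Col11a1, and Col9a1, Col9a2 and Col9a3, were among these 20. In bulk tissue, fewer cells of a type and less RNA per cell cannot be told apart.

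**Figure D1:**
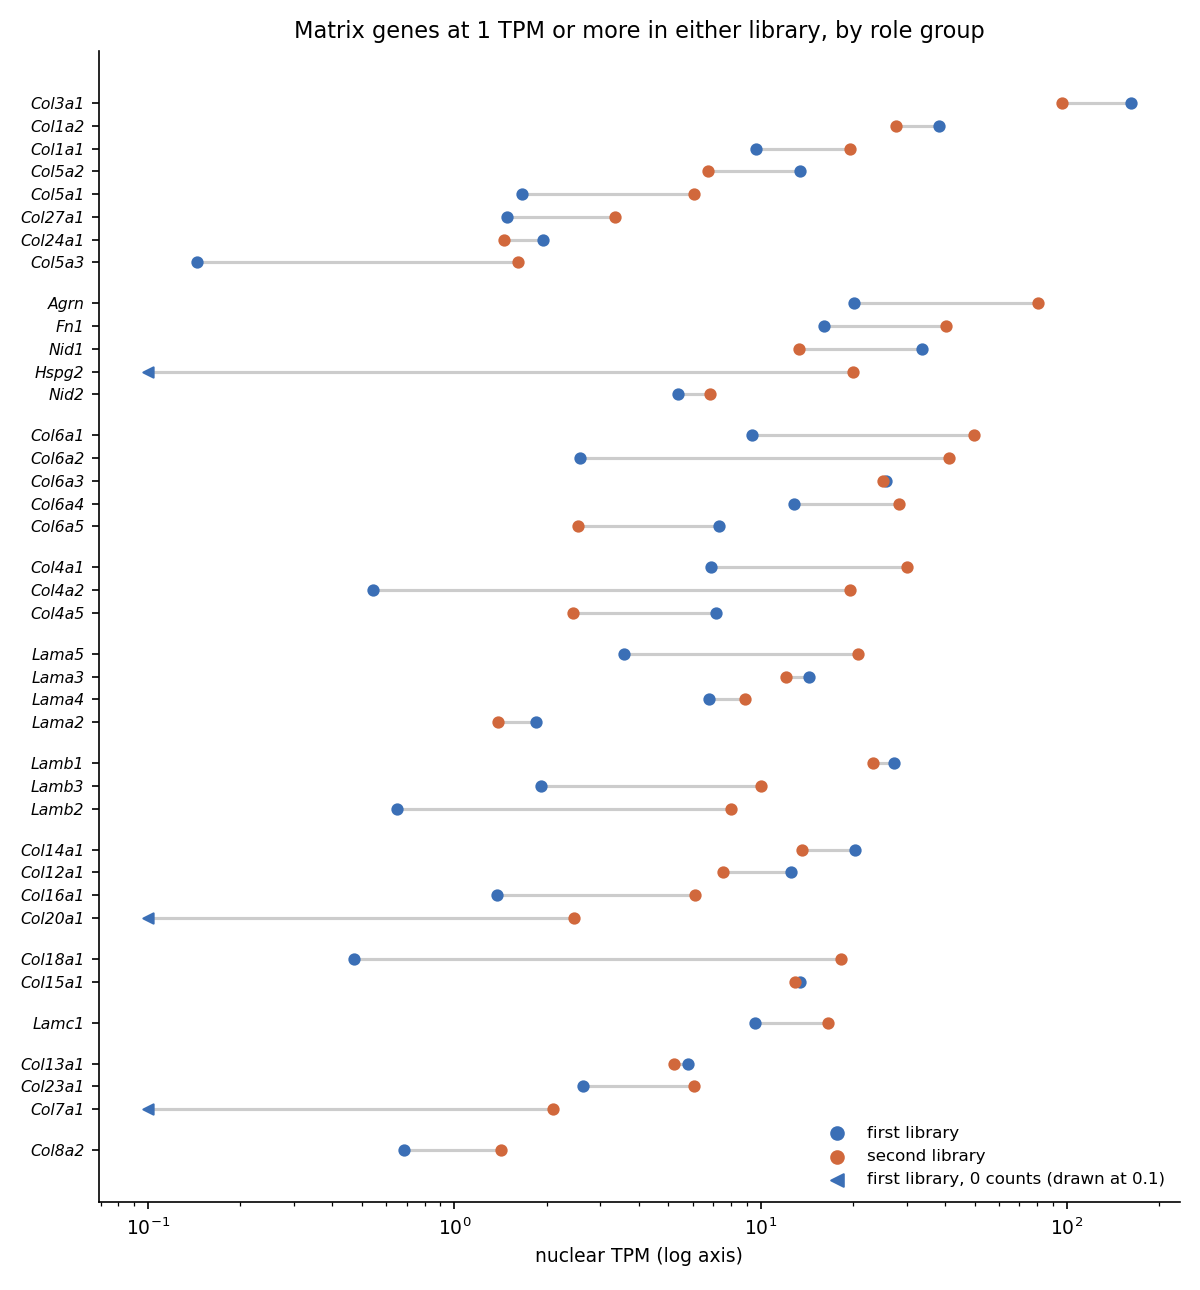
Nuclear TPM (log axis) of 39 matrix genes that reached 1 TPM in either library, grouped by role with 1 row per gene, blue for the first library and orange for the second. Col3a1 stands to the right of all others in both libraries, and the first-library points of Hspg2, Col7a1 and Col20a1, which had 0 counts, are drawn as triangles at 0.1.

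Fibrillar collagens, which form the tensile fibers of the lamina propria and submucosa, held 44.8% and 23.1% of the members' TPM. Col3a1 (chr1:45311538-45349706, plus strand), the single chain of collagen III, was the most abundant member in both libraries at 44.70 and 75.72 TPM, and ranked 1087 and 1529 among 21461 nuclear protein-coding genes. Its 5808 and 5528 counts gave a log2 ratio of second over first of -0.70 ± 0.0271 (counting SE; exact binomial, adjusted p = 3.85e-147), under the 2-fold limit. The direction depended on the scale: deposited TPM was higher in the second library, while nuclear TPM, at 161.5 and 96.6, was higher in the first. Col1a2 (chr6:4504814-4541544, plus strand), the alpha 2 chain of collagen I, stood at 10.56 and 21.72 TPM with 1382 and 1972 counts and a log2 ratio of -0.12 ± 0.0506 (exact binomial, adjusted p = 0.0215). Neither chain was called on these counts or with the GC trend removed. Col3a1 was called for the first library with upper-quartile factors, at -1.20, and both chains were with the GC content of the longest transcript, at -2.25 and -3.44. Col1a1, which supplies the other chains of collagen I, had 2.67 and 15.41 TPM from 453 and 1669 counts and was called higher in the second library. The collagen V chain Col5a1 was also called higher there, at 0.46 and 4.74 TPM, whereas its partner Col5a2 stood at 3.71 and 5.29 TPM and was not called. Col27a1 (0.41 and 2.62 TPM) and Col5a3 (0.04 and 1.27 TPM) were called higher in the second library, and Col24a1, at 0.54 and 1.14 TPM, was not called. Of 9 tested fibrillar genes, 5 were called for the second library and 0 for the first, where 40.2% and 27.5% of all tested genes were called. Once the GC trend described below was removed, the counts were 0 and 3, against 17.7% and 17.6%.

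Collagen VI makes beaded microfilaments that link cells to the fibers around them, and it held 11.4% and 20.7% of the members' TPM. Col6a1 (chr10:76708792-76726168, minus strand) had 2.59 and 39.07 TPM from 300 and 2886 counts, a log2 ratio of 2.63 ± 0.0874 (exact binomial, adjusted p = 3.63e-315). Col6a2 (chr10:76595762-76623630, minus strand) lies 85161 bases from it on the same strand and had 0.71 and 32.33 TPM from 91 and 2363 counts, a log2 ratio of 4.06 ± 0.154, with an adjusted p too small for the computation to hold. Col6a3, the largest of the common chains, stood at 7.10 and 19.72 TPM, so by gene TPM it was above Col6a1 and Col6a2 in the first library and below them in the second. On long coding transcripts alone, defined below, it was below Col6a1 in both. The alternative chain Col6a4 reached 3.57 and 22.21 TPM and Col6a5 2.03 and 1.98 TPM. In all, 4 of the 5 tested collagen VI genes were called higher in the second library, against the background of 40.2%. With the GC trend removed none was called higher there and Col6a1 was called higher in the first library, at a log2 ratio of -1.58.

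Among collagen IV chains the ubiquitous Col4a1 and Col4a2 led in the second library, while Col4a5 and Col4a1 were highest by TPM in the first. Col4a1 (chr8:11198423-11312826, minus strand) had 1.90 and 23.49 TPM from 361 and 2847 counts, a log2 ratio of 2.34 ± 0.0806 (exact binomial, adjusted p = 3.58e-273). Col4a2 (chr8:11312805-11449287, plus strand) had 0.15 and 15.38 TPM from only 28 and 1816 counts, a log2 ratio of 5.36 ± 0.272, with an adjusted p again too small to hold. The genes are arranged head to head, their annotated starts 21 bases apart and their first exons overlapping by 22 bases. The sources used here do not say whether counting used strand. Removing the GC trend left Col4a2 at 0.04 and turned Col4a1 to -1.03, a call for the first library. Of the other chains Col4a5, on the X chromosome, had 1.98 and 1.92 TPM, while Col4a6, Col4a3 and Col4a4 stayed under 1 TPM in both libraries. Col4a5 was not called on these counts but was called higher in the first library with the GC trend removed, at -1.22. Col4a4, a chain of the kidney-type network, had 40 and 25 counts and a log2 ratio of -1.30 ± 0.365 (exact binomial, adjusted p = 0.000396). Col4a4 and Col4a3 (87 and 59 counts) were called higher in the first library. Col4a4 was still called there with the GC trend removed, at -2.25, and Col4a3 was not, at -0.40. Each collagen IV pair starts from neighbouring promoters on opposite strands, 72 bases apart for Col4a3 and Col4a4 and 1309 bases apart for Col4a5 and Col4a6.

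The groups of collagens attached to fibrils or to membranes each summed to less TPM than the fibrillar collagens and than collagen VI, in both libraries. Among the FACIT collagens, which decorate fibril surfaces, Col14a1 had 5.63 and 10.74 TPM from 872 and 763 counts, a log2 ratio of -0.83 ± 0.0715 (exact binomial, adjusted p = 2.00e-30). Col12a1 had 3.48 and 5.90 TPM from 536 and 545 counts, a log2 ratio of -0.61 ± 0.0877 (exact binomial, adjusted p = 7.85e-12). Neither passed the 2-fold limit, although Col14a1 was called higher in the first library once the GC trend was removed, at -1.38. Col16a1 (0.38 and 4.79 TPM) was called higher in the second library before that step and in the first after it. Col20a1 had 0 and 101 counts (0.00 and 1.93 TPM), which is at least 21.7-fold higher there when set against 3 counts in the first (fitted log2 ratio 7.03 ± 2.05; exact binomial, adjusted p = 3.24e-22). It overlaps the exons of BX649560.1 on the same strand, a gene with 45 and 130 counts, so its reads are uncertain, and with the GC trend removed it was not called, at 2.36. Col7a1, the anchoring fibril chain that ties the basement membrane to the stroma in skin, had 0 and 190 counts (0.00 and 1.64 TPM), at least 40.8-fold higher by the same floor (fitted log2 ratio 7.94 ± 2.04; exact binomial, adjusted p = 2.99e-41). With the GC trend removed its fitted ratio was 3.59 and it was still called, a call lost with the GC content of the longest transcript.

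The membrane-spanning collagens Col13a1 and Col23a1 were detected in both libraries. Col23a1 had 0.73 and 4.76 TPM from 118 and 473 counts, a log2 ratio of 1.37 ± 0.148 (exact binomial, adjusted p = 2.82e-23). Col13a1 had 1.60 and 4.10 TPM from 48 and 199 counts, a log2 ratio of 1.41 ± 0.231 (exact binomial, adjusted p = 5.73e-11). Both calls turned with the GC trend removed, to -2.11 and -2.70. Col25a1, known as a collagen of neurons, had the lowest log2 ratio of all members at -2.48 ± 0.444 from 48 and 13 counts (exact binomial, adjusted p = 6.40e-10), and stayed higher in the first library with the trend removed. The next lowest was Col8a1, a short-chain collagen, with 39 and 22 counts and -1.44 ± 0.381 (exact binomial, adjusted p = 0.000142), a call that was lost with the trend removed. Its partner Col8a2 had 0.19 and 1.11 TPM from 23 and 87 counts, 1.26 ± 0.335 (exact binomial, adjusted p = 6.87e-05), which turned to -3.07. Col28a1 stayed under 1 TPM, with 10 and 26 counts and 0.70 ± 0.526 (exact binomial, adjusted p = 0.190).

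Both multiplexins, collagens of basement membrane zones whose ends are cut off as endostatin-like fragments, were called higher in the second library. Col18a1 (chr10:77052178-77166548, minus strand) had 0.13 and 14.40 TPM from 19 and 1283 counts, a log2 ratio of 5.41 ± 0.329 (exact binomial, adjusted p = 8.39e-243). Col15a1 had 3.72 and 10.15 TPM from 169 and 616 counts, a log2 ratio of 1.23 ± 0.125 (exact binomial, adjusted p = 1.06e-25). With the GC trend removed Col18a1 was not called, at 0.48, and Col15a1 was called for the first library, at -1.61.

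The leading laminin alpha chain by gene TPM depended on the library, whereas the leading beta chain did not. Lama5, the main alpha chain of villus basement membranes, had 0.99 and 16.33 TPM from 16 and 966 counts, a log2 ratio of 5.24 ± 0.358 (exact binomial, adjusted p = 1.05e-180). Lama3, the alpha chain of the anchoring laminin-332, had 3.99 and 9.47 TPM from 649 and 1085 counts and 0.11 ± 0.0716 (exact binomial, adjusted p = 0.146). By gene TPM Lama3 was above Lama5 in the first library and below it in the second, but on long coding transcripts alone, defined below, it was above in both, at 3.99 and 9.46 TPM against 0 and 4.20. Lama3 also had more counts in both libraries. Lama4, common in vessels, stood at 1.88 and 6.95 TPM, and Lama2, common around muscle and in crypts, at 0.51 and 1.09 TPM. Neither was called in either direction. Lama1 stayed under 1 TPM, with 4 and 37 counts.

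Of the beta chains Lamb1 was the most abundant in both libraries, at 7.53 and 18.19 TPM from 581 and 1482 counts, with a log2 ratio of 0.72 ± 0.0706 (exact binomial, adjusted p = 1.96e-25), under the 2-fold limit. Lamb3, the beta chain of laminin-332, had 0.53 and 7.84 TPM from 11 and 578 counts, 5.02 ± 0.430 (exact binomial, adjusted p = 1.45e-106), and was still called higher in the second library with the GC trend removed, at 3.31. Lamb2 had 0.18 and 6.28 TPM from 3 and 353 counts. Among gamma chains Lamc1, shared by most laminins, had 2.66 and 13.00 TPM from 304 and 1066 counts, 1.18 ± 0.0937 (exact binomial, adjusted p = 1.37e-40). In all, 6 of 11 laminins were called for the second library, 0 for the first and 5 for neither, against backgrounds of 40.2% and 27.5%. With the GC trend removed these were 3 for the second library and 0 for the first, against 17.7% and 17.6%, and Lamb2 was not called, at 1.32.

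The linkers and proteoglycans held the steepest difference. Hspg2 (chr4:137468769-137570630, plus strand), which encodes perlecan, had 0 and 1620 counts (0.00 and 15.67 TPM). Set against 3 counts in the first library, the second held at least 348-fold more, the highest log2 ratio of all members (fitted value 11.03 ± 2.04; adjusted p too small to hold). The bound takes no account of GC content: with the GC trend removed the fitted value was 5.70, still called for the second library. By gene TPM Agrn (chr4:156165290-156197488, minus strand), agrin, was the most abundant member after Col3a1 in the second library. It had 5.59 and 62.96 TPM from 339 and 4599 counts and a log2 ratio of 3.13 ± 0.0811, its adjusted p likewise too small to hold. On long coding transcripts alone, defined below, Agrn had 0 and 20.59 TPM. In the second library that was below Col3a1 (52.11), Col6a1 (39.07), Col6a2 (31.21) and Col4a1 (23.49). Agrn stood at -0.62 and was not called with the GC trend removed. Fn1 (chr1:71585520-71653200, minus strand), the cell-binding glycoprotein fibronectin, had 4.46 and 31.58 TPM from 437 and 2758 counts, 2.02 ± 0.0742 (exact binomial, adjusted p = 2.67e-221). Its call was lost with the GC trend removed, at 0.41, or at -0.0173 by the GC content of its longest transcript. Nid1 (chr13:13437551-13512269, plus strand) went the other way in counts, with 1610 and 1157, and was called 2.16-fold higher in the first library. Its deposited TPM, 9.29 and 10.47, was slightly higher in the second library and its nuclear TPM, 33.6 and 13.4, was higher in the first. Nid2 had 1.49 and 5.37 TPM and was not called on these counts, but was called higher in the first library with the GC trend removed, at -1.90. It overlaps Rtraf on the opposite strand, a gene with 3144 and 2036 counts, so its reads are uncertain.

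Over the whole set, 50 of 60 members had enough counts for the test. Of these, 28 (56.0%) were called higher in the second library, against a background of 40.2% of all tested genes. Only 5 (10.0%) were called higher in the first, against 27.5% of all tested genes, namely Col4a3, Col4a4, Col8a1, Col25a1 and Nid1. The other 17 were not called. With upper-quartile factors the counts were 21 and 10, with backgrounds of 34.7% and 36.9%. The median log2 ratio was 1.26 over the tested members and 0.26 over all tested genes. Deposited TPM was higher in the second library for 52 members and nuclear TPM for 36, with nuclear TPM higher in the first for 23. Deposited TPM was lowered more in the first library by its larger mitochondrial share. Neither count was set beside the share over all genes, which was not computed. Spearman's rho of TPM between the libraries was 0.735 over the 59 members with a count, a description across genes that share 2 libraries.

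The ratio between libraries moved with GC content, taken as the mean over a gene's transcripts. Across the 50 tested members Pearson's r was 0.746 and Spearman's rho 0.821, and across 15072 tested nuclear genes these were 0.80 and 0.855. These are descriptions across genes, which share libraries and depth. Of the 22 members at 55% GC or more, 21 were called for the second library and 0 for the first, where 90.8% of all nuclear genes of that band were called higher in the second. From 50% to 55% GC, 6 of 16 members were called for the second library and 3 for the first, against 57.2% and 4.50% of all genes. From 45% to 50% GC, 1 of 12 members was called for the second library, Lamc1, and 2 for the first, against 8.02% and 30.8%. No member was below 45% GC, where 85.3% of genes were called higher in the first library. The tested members had a median GC content of 53.5% against 50.4% for all tested genes, so the set as a whole lay on the GC-rich side.

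**Figure D2:**
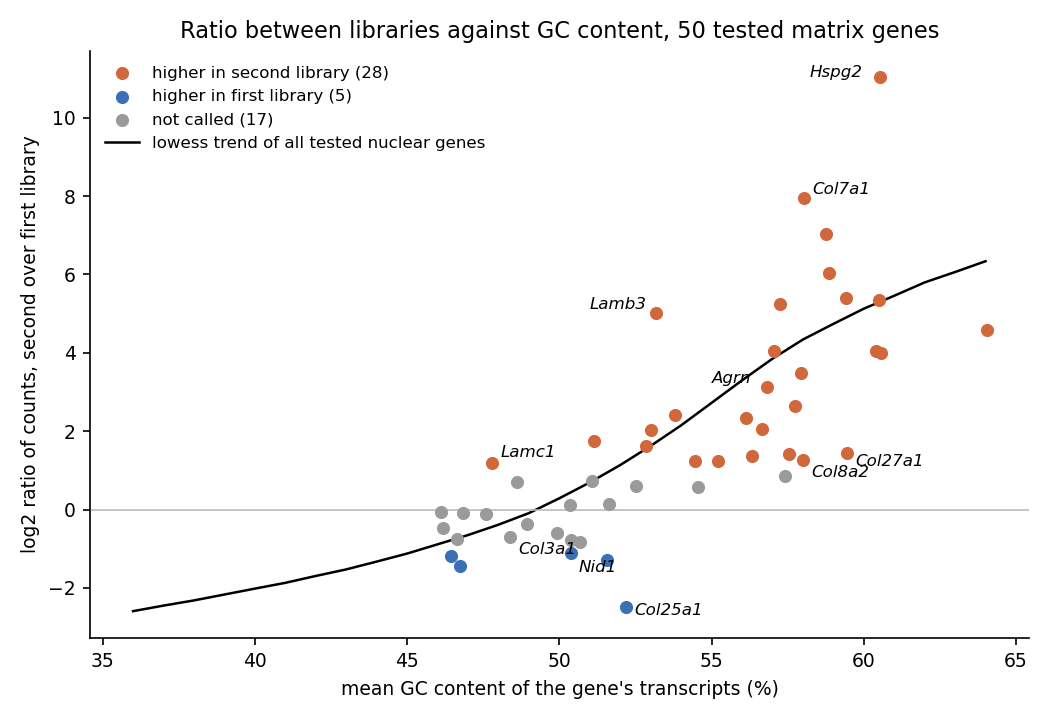
Log2 ratio of counts, second over first library, against mean transcript GC content for the 50 tested matrix genes, colored by call, with the lowess trend of all tested nuclear genes as a line. Hspg2 and Lamb3 lie above the line and Col27a1, Col8a2, Nid1 and Col25a1 below it.

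Subtracting that trend changed the calls of most members. After it, 5 members (10.0%) were called higher in the second library, Hspg2, Col7a1, Lama5, Lamb3 and Lamc1, against a background of 17.7%. The other direction held 17 members (34.0%) against 17.6%, and 28 were not called. Of the 28 members called higher in the second library before, 10 were called higher in the first after it. The median log2 ratio of the members became -0.52, with -0.01 over all tested genes. By family, 15 of 34 tested collagens were called higher in the first library and 1 in the second, whereas 0 of 11 laminins were called higher in the first and 3 in the second. The choice of GC measure mattered: with the GC content of each gene's longest transcript, 22 collagens and 2 laminins were called higher in the first library, and 1 collagen, 1 laminin and Hspg2 in the second, against backgrounds of 14.1% and 16.8% of all genes. Under that measure Lama5 (-0.09) and Lamc1 (-0.63) were not called, and Hspg2 (5.33) and Lamb3 (1.71) still were. The difference between families was not tested.

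The balance between chains that assemble in 1 molecule differed between the libraries for most pairs. Collagen I holds more alpha 1 than alpha 2 chains, yet the TPM ratio of Col1a1 to Col1a2 was 0.253 and 0.709. As a share of the pair's counts, Col1a1 took 24.7% (exact 95% binomial interval 22.7 to 26.7) and 45.8% (44.2 to 47.5). Col4a1 and Col4a2, which assemble together, stood at a TPM ratio of 12.7 in the first library and 1.53 in the second, with Col4a1 taking 92.8% (89.8 to 95.2) and 61.1% (59.6 to 62.5) of counts. For Col5a1 and Col5a2 the ratio went from 0.124 to 0.896. In each of these 3 pairs the chain richer in GC had its lower share in the first library: Col1a1 at 54.5% GC against 47.6%, Col4a2 at 60.5% against 56.1%, and Col5a1 at 56.7% against 46.6%. Of the pairs whose intervals lay apart, 3 went the other way, with the chain richer in GC at its higher share in the first library. Col6a1, at 57.7% GC against 57.0% in Col6a2, took 76.7% and 54.98% of the pair's counts. Col3a1, at 48.4% against 47.6% in Col1a2, took 80.8% and 73.7%, and Lamb1, at 51.1% against 47.8% in Lamc1, took 65.6% and 58.2%.

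In 1 of the pairs drawn the intervals of the libraries overlapped. Col4a3 took 68.5% (59.7 to 76.5) and 70.2% (59.3 to 79.7) of the counts it shares with Col4a4, on 127 and 84 counts. Lama3 to Lamb3, chains of laminin-332, was 7.53 and 1.21 by TPM, with GC contents of 50.3% and 53.2%. Lamb1 to Lamb2, alternative beta chains, was 41.8 and 2.90 by TPM. The first-library ratios rest on only 11 Lamb3 and 3 Lamb2 counts. On long coding transcripts alone, defined below, they were 79.8 and 1.21 for Lama3 to Lamb3 and 124 and 3.83 for Lamb1 to Lamb2. Nid1 took 88.6% (87.06 to 90.03) and 70.9% (68.6 to 73.0) of nidogen counts.

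**Figure D3:**
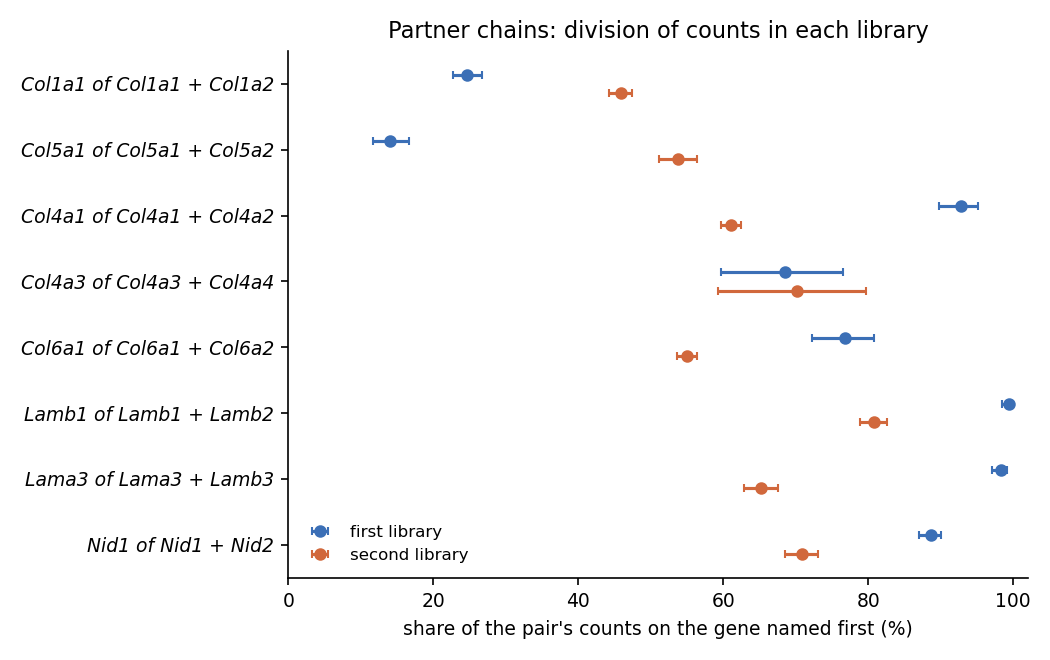
Share of a pair's counts, in percent, on the gene named first, for 8 pairs of matrix genes in the first (blue) and second (orange) library, with exact 95% binomial intervals as bars. The intervals overlap for Col4a3 with Col4a4 and lie apart for the other 7 pairs.

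The transcript tables showed which isoforms carried these levels. Counts were summed over long coding transcripts, meaning protein-coding transcripts of at least 50% of the length of the gene's longest, and transcripts absent from the M21 annotation were not counted as coding. Of 35 members with 20 or more counts in each library, 14 had a lower share of counts on long coding transcripts in the first library, 8 a higher one and 13 the same. Long coding transcripts held 64.1% and 67.6% of the members' TPM.

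Agrn had 0 of 339 counts on coding transcripts in the first library, which allows a share of up to 0.885%, and 57.2% in the second. In the first, 97.5% of its TPM lay on a retained-intron transcript of 2071 bases, which held 56.7% in the second. Lamb1 had 35.3% and 87.6% of counts on long coding transcripts, and a transcript of 2318 bases not in M21 held 78.7% and 23.8% of its TPM. For Col6a3 a retained-intron transcript of 646 bases held 86.5% and 52.9% of TPM, so its full-length coding transcripts amounted to 0.96 and 9.07 TPM. By counts, long coding transcripts held 74.8% and 94.1% of Col6a3. On long coding transcripts alone the ratio of Col6a3 to Col6a2 was 1.71 and 0.291, against 10.0 and 0.610 by gene TPM. The ratio of Col6a3 to Col6a1 was 0.371 and 0.232, against 2.74 and 0.505 by gene TPM. Col3a1, in contrast, had its main transcript of 5564 bases at 79.6% and 68.8% of TPM in the first and second library. Col1a2 likewise had 83.3% and 92.3% on its transcript of 5347 bases. For Col14a1 the leading transcript by TPM changed, from one of 6457 bases at 52.7% in the first library to one of 2085 bases at 57.3% in the second. By counts a transcript of 6447 bases led in the second library, with 452.12 counts against 220.92 on the one of 2085 bases.

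A further set of genes was chosen after their values were seen. Fn1 had 9.49% and 49.8% of counts on long coding transcripts, and a retained-intron transcript of 4022 bases held 71.3% and 57.2% of its TPM. Fibronectin transcripts include or skip the extra domains EDA and EDB, which are known from cellular rather than plasma fibronectin. In the second library transcripts with the EDA exon (chr1:71603660-71603929, minus strand) held 77.9% of full-length Fn1 TPM, on 1081.64 of 1374.76 estimated counts. Those with the EDB exon (chr1:71613763-71614035, minus strand) held 2.99%. The first library had only 41.45 full-length counts, too few for these shares to be read. Hspg2, read in the second library alone, had 5.69 of its 15.67 TPM on long coding transcripts. Col15a1 had 3.63% and 75.1% of counts on long coding transcripts, and Lama5 0 of 16 counts, which allows a share of up to 18.8%, and 91.7% of 966. Lama3 kept its shorter transcript of 5551 bases as the main one, at 97.3% and 85.7% of TPM.

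**Figure D4:**
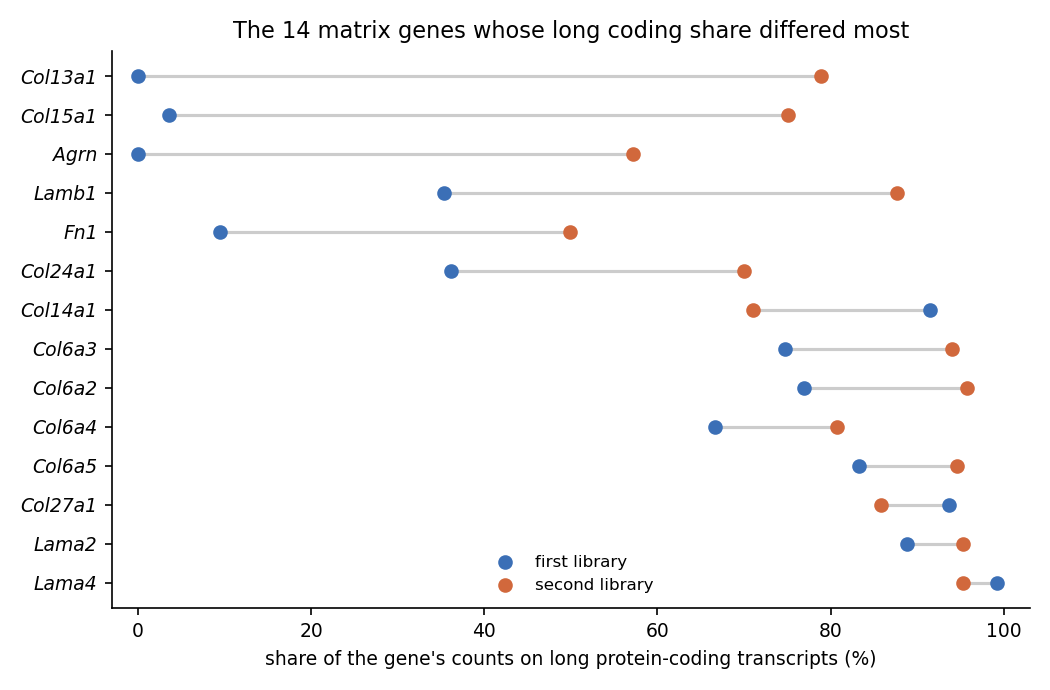
Share of counts on long protein-coding transcripts, in percent, in the first (blue) and second (orange) library for the 14 matrix genes with the widest gap among those with 20 or more counts in each. Agrn and Col13a1 stand at 0 in the first library, and Col14a1, Col27a1 and Lama4 have the higher share in the first.

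Genes that make, cut, bind and degrade these proteins were counted from lists, each set against the backgrounds of 40.2% and 27.5% given above. With the GC trend removed the backgrounds were 17.7% and 17.6%. Of 17 tested genes for collagen folding and modification, 10 were called for the second library and 2 for the first, and 2 and 2 with the GC trend removed. P4hb, a subunit of prolyl 4-hydroxylase, was the most abundant in both libraries at 198.6 and 1416.78 TPM, and the prolyl isomerase Ppib had 42.85 and 280.49 TPM. The secretory genes Sec23a (83.94 and 92.01 TPM) and Mia3 (58.47 and 91.70 TPM), which help load large collagens into carriers, were above Ppib in the first library and below it in the second. Of 14 genes for collagen cutting and crosslinking, 8 were called for the second library and 1 for the first, and 1 and 2 with the trend removed. The transglutaminase Tgm2 had 0.18 and 43.36 TPM and stayed called in the second library, whereas Bmp1, the procollagen C-proteinase (0.46 and 22.43 TPM), did not. The proteinase enhancer Pcolce (0.40 and 9.86 TPM) and the lysyl oxidase Loxl2 (2.18 and 7.07 TPM) were called higher in the first library with the trend removed.

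Of 21 matrix receptors, 9 were called for the second library and 7 for the first, and 5 and 6 with the trend removed. Itgb1, the common beta subunit of collagen and laminin receptors, was the most abundant at 98.75 and 82.13 TPM, and was called higher in the first library. Itga6, a laminin-binding subunit, stood at 53.23 and 73.75 TPM, and Dag1, dystroglycan, at 8.63 and 57.07 TPM. The proteoglycan Sdc4 had 20.08 and 50.67 TPM. Among 14 tested proteases and inhibitors, 6 were called for the second library and 3 for the first, and 3 and 2 with the trend removed. Mmp7, matrilysin of Paneth cells, stood at 21.54 and 59.81 TPM, Adam10 at 42.72 and 30.10 TPM, Mmp10 at 14.44 and 31.19 TPM and the inhibitor Timp3 at 12.81 and 12.48 TPM.

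Other basement membrane proteins numbered 18, of which 8 were called for the second library and 2 for the first, and 1 and 6 with the trend removed. Fbln1, fibulin 1, had 4.11 and 144.79 TPM, above every collagen in the second library. Sparc, a collagen-binding glycoprotein, had 19.37 and 69.81 TPM, Smoc2 4.53 and 28.91 TPM and the hemidesmosome linker Dst 6.80 and 24.68 TPM. Of 15 tested interstitial matrix genes, 4 were called for the second library and 5 for the first, and 2 and 1 with the trend removed. The small proteoglycan Dcn had 85.96 and 87.28 TPM, so it was above Col3a1 in both libraries, with Bgn at 13.06 and 49.34 TPM, Dpt at 17.33 and 28.57 TPM and Ogn at 31.33 and 10.88 TPM. Medians of the log2 ratio ran from -0.22 in the interstitial list to 2.06 in the cutting and crosslinking list, with 0.26 over all tested genes. With the GC trend removed the medians ran from -0.46 in the other basement membrane list to -0.13 in the cutting and crosslinking list. All tested genes then had a median of -0.01.

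Markers of the cells that could supply matrix RNA moved between the libraries as well. Their calls stand beside the same backgrounds, 40.2% for the second library and 27.5% for the first. With the GC trend removed these were 17.7% and 17.6%. The sums below are in deposited TPM, which is multiplied by 3.61 and 1.28 to give nuclear TPM. On nuclear TPM the epithelial, fibroblast, and glial and neuronal sums were higher in the first library, and the other sums kept their direction. The 8 epithelial markers summed to 3906.28 and 9623.38 TPM, most of it Fabp2 in both, with 4 called for the second library and 0 for the first, and 2 and 3 with the GC trend removed. The 8 fibroblast markers summed to 147.83 and 300.33 TPM, with 3 called for the second library and 2 for the first (1 and 0 with the trend removed), and Pi16 at 0 counts in the first. Smooth muscle markers summed to 53.67 and 653.91 TPM, 6 of 7 being called higher in the second library and 5 of 7 with the GC trend removed. Acta2 had 10.13 and 227.26 TPM. Endothelial markers summed to 16.02 and 99.77 TPM (5 of 7 higher in the second, 1 with the trend removed), and pericyte markers to 101.1 and 69.56 TPM, 3 of 5 being called for the second library and 2 for the first, and 0 and 1 with the trend removed. Glial and neuronal markers summed to 7.77 and 8.31 TPM with Sox10 at 0 in the first library, and mesothelial markers to 3.24 and 598.28 TPM, 595.21 of it Krt19, a keratin that gut epithelium also expresses, with Msln at 0 in the first. Adipocyte markers summed to 42.15 and 339.1 TPM (3 of 5 higher in the second, 3 with the trend removed). Pancreatic acinar markers summed to 1952.59 and 9217.14 TPM, 3 of 5 being called higher in the second library and 4 with the trend removed. The part of these cell types in the matrix results was not tested, and makeup of the tissue piece and library preparation cannot be told apart with 1 library on each side.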

How the data were processed

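Per the deposited notes, the tables were built on mm10 with gene models M4; the sources used here name no aligner, quantifier version or read filter. Expected counts were deposited by the authors as estimates per gene and transcript, and were rounded to whole numbers here. TPM was deposited by the authors after division by effective length and scaling to a fixed sum; deposited FPKM served 1 alternative; the percent of a gene's TPM per isoform was deposited too. Symbols, positions and sequences came from GENCODE M21 by unversioned ID (42462 of 43346 genes matched). GC content had a value for 42402 genes and all 60 members. Copies of mitochondrial genes in nuclear DNA were searched with BLAST 2.17.0 (95% identity, 100 bases). With 1 library on each side no quasi-likelihood model of edgeR could be fitted, so an exact binomial test per gene was used (TMM from edgeR 4.0.16, 20 counts or more, prior 0.5, scipy 1.17.1). The GC trend was a lowess with span 0.3 (statsmodels 0.14.6). The test was checked only on simulated counts that held counting error and no GC trend. That check cannot show how the test behaves on libraries that differ in other ways. DESeq2 1.42.0 gave an alternative scaling. The p-values measure counting error between 2 technical libraries only. Members with 1 TPM or more were named, with full statistics for up to 2 leading genes of each role and the 3 highest and 3 lowest ratios; lists were represented by up to 4 leading genes. Members and lists were chosen with earlier results of these data known. A gene that the rule chose stays in all counts but is not reported by name here.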

Additional observations from a re-analysis of the deposited data

How the results depend on the processing

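With 28 and 5 members called higher in the second and first library and a median log2 ratio of 1.26, both counts stayed within 1.5 times with median-of-ratios factors, without mitochondrial genes, with no count filter and at 50 counts or more. Upper-quartile factors gave 10 for the first library and a median of 0.76. Removing the GC trend gave 5, 17 and -0.52, and removing the GC trend of the longest transcript, chosen after seeing the data, gave 3, 26 and -1.15. Removing the length trend gave 26 for the second library and 3 for the first, against 32.1% and 37.4% of all tested genes. Any fold gave 31 and 12, against 48.8% and 39.9%, and 4-fold gave 19 and 1, against 30.3% and 7.68%. The median ratio of nuclear TPM was 0.86 with a pseudocount of 0.1. The cause of these differences was not tested. The members' share of 0.0610% ran from 0.0509% to 0.0711% over single libraries, and was 0.158% of nuclear counts and 0.0349% of all TPM. The 23 members at 1 TPM or more in both libraries became 32 on nuclear TPM, and 23 to 40 over single libraries.

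Of 242 recomputed log2 ratios of 27 named members, 193 kept direction and call, 7 gained a call, 17 lost one and 25 turned. With the GC trend removed the turned values were Agrn -0.62, Col13a1 -2.70, Col15a1 -1.61, Col1a2 0.37, Col23a1 -2.11, Col4a1 -1.03, Col6a1 -1.58, Col8a2 -3.07 and Lama3 -0.31. With the longest transcript they were Agrn -0.64, Col13a1 -3.63, Col15a1 -2.47, Col18a1 -0.26, Col23a1 -1.60, Col4a1 -2.04, Col4a2 -0.23, Col6a1 -1.23, Col8a2 -3.78, Fn1 -0.0173, Lama3 -1.09, Lama5 -0.0946, Lamb1 -0.84 and Lamc1 -0.63. Upper-quartile factors turned Lama3 (-0.39), and the length trend turned Col1a2 (0.0284). No paired analysis was possible because the libraries form 1 group. In the first library 8 members had 0 counts and in the second 2. Library totals were 28277864 and 24509856 counts, of which 16422764 and 22137608 lay outside mitochondrial genes and their nuclear copies. The share of all genes at 0 counts was not computed, and the cause of the members' 0 counts was not tested.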
